A study of Mus musculus with 1699 samples.

Results

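The cells described here were the neurons of the embryonic mouse midbrain in which the dopamine transporter gene Slc6a3 (Dat) was already strongly expressed at E13.5 and E15.5. They were chosen by their own readout, as heterozygous cells of these stages with more than 100000 reads and a Slc6a3 RPKM (a read count scaled by the length of the gene and the total of its cell) over 150. The rule found 63 of the 1699 cells of the series, 25 of the 140 heterozygous E13.5 cells with enough reads and 38, or 27%, of those of E15.5. They were compared with Th-high Slc6a3-low cells, which were heterozygous cells of the same stages with a Th RPKM over 150 and a Slc6a3 RPKM of 10 or less (57 at E13.5 and 56 at E15.5). Because Slc6a3 and Th chose the cells, and every other gene was read in those same cells, all levels below are given as descriptions with no test.

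Single cells were isolated from ventral midbrain by sorting for GFP and sequenced with Smart-seq2, a full-length method without molecular identifiers or strand information. Both groups came from Pitx3eGFP/wt embryos, in which 1 allele of Pitx3, the gene of a homeodomain factor of midbrain dopamine neurons, carries eGFP and the other is wild type, so the cells compared here also had a single wild-type Pitx3 allele and were limited to those with GFP. The embryonic tissue was dissociated with a kit for neural tissue, and spike-in RNA was not added to the heterozygous E13.5 and E15.5 cells. Several animals were used at each stage, but no cell is tied to an animal by the labels, so each stage counted as 1 sample, cells were not treated as replicates, and intervals on shares of cells cover counting error only. The age of the embryo and the day of dissociation and sequencing cannot be told apart.

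Dopamine neurons make dopamine from tyrosine with tyrosine hydroxylase (Th) and aromatic amino acid decarboxylase (Ddc), load it into vesicles with the vesicular monoamine transporter (Slc18a2) and take released dopamine back up with the transporter encoded by Slc6a3. During development, Th appears in young postmitotic neurons before the transporter does. In the adult midbrain a high transporter level is a feature of the substantia nigra and of much of the lateral ventral tegmental area, and neurons of the medial tegmental area often have less of it.

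The selected cells carried Slc6a3 at an RPKM of 154.6 to 1688 at E13.5 (median 564.5) and of 157.4 to 2523 at E15.5 (median 647.6). In the cells they were compared with, the highest level was 1.25 at E13.5 and 3.54 at E15.5, and the next cell with Th over 150 had 53.1 at E13.5 and 20.2 at E15.5. The cells just inside the limit had 154.6, 161.3 and 184.9 at E13.5 and 157.4, 157.9 and 171.3 at E15.5, and those just outside had 138.1, 120.96 and 120.1 at E13.5 and 120.9, 113.4 and 110.8 at E15.5. Few cells lay in the gap, since the cells with a Slc6a3 level over 10 and up to 150 numbered 11 at each stage. Th, which the rule asked only of the comparison cells, had a median RPKM of 1731 in the selected cells at E13.5 (range 4.1 to 7471) and of 2200 at E15.5 (3.46 to 6330). The comparison cells had a Th median of 1515 (164.53 to 5735) and of 1256 (156.06 to 4805). The ranges of Th overlapped almost wholly, and a Th level of 150 or less was found in 1 selected cell at E13.5 and 2 at E15.5.

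**Figure D1:**
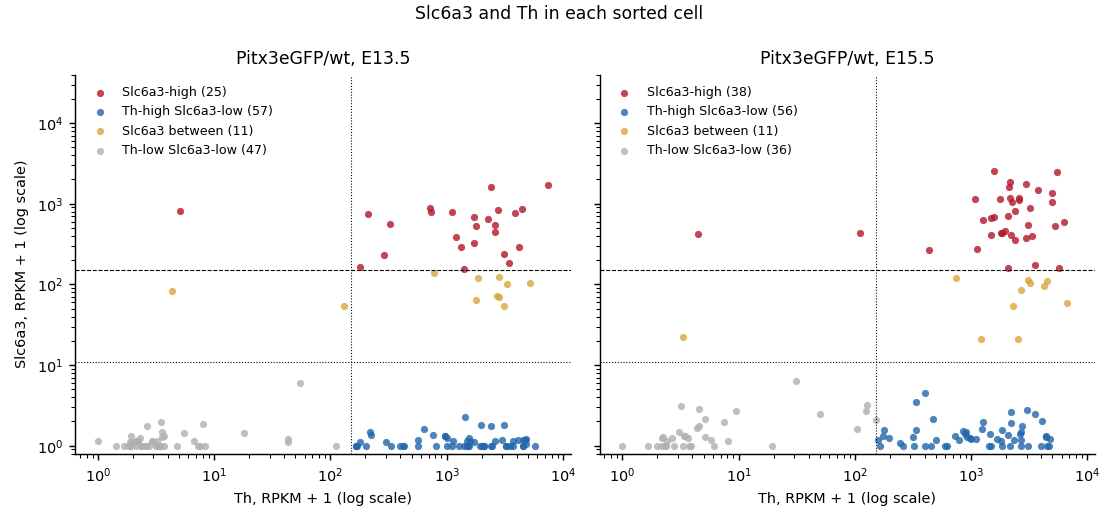
Slc6a3 and Th of the heterozygous E13.5 and E15.5 cells with enough reads, as RPKM + 1 on log axes, with 1 point per cell. The limits of the rule are shown as lines. The 25 and 38 selected cells lie past the Slc6a3 limit of 150. The 57 and 56 comparison cells lie past the Th limit of 150 and at low Slc6a3. At each stage 11 cells lie between the Slc6a3 limits.

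Slc6a3 (ENSMUSG00000021609) is on the plus strand of chromosome 13 (chr13:73536747-73578672, GRCm38). Its promoter sequence is shown because the level of this gene defines the cells, and that of Otx2, a homeobox gene that was lower in them, because it holds a short motif searched for. Both are from RefSeq (GRCm38.p6), 250 bases before to 50 after the start, at chr13:73536497-73536796 (plus strand) and chr14:48665060-48665359 (minus strand, 1 of 4 starts listed for Otx2), and capitals mark a match to TAATCC, the core recognised by Pitx and Otx homeodomains, on either strand.
Slc6a3: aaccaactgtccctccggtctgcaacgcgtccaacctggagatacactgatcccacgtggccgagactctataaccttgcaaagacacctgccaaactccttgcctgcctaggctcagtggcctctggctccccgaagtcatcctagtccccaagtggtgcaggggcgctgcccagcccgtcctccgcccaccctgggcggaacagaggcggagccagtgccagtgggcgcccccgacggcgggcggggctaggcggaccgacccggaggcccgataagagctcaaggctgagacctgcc
Otx2: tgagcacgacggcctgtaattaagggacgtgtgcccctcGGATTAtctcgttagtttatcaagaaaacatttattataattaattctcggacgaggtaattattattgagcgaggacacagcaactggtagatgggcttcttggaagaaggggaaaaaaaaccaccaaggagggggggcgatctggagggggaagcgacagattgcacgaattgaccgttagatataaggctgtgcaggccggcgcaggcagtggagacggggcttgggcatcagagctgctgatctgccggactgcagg
The Slc6a3 window held no match to TAATCC or to AAAGGTCA, the site bound by Nr4a2 as a monomer. Counting genes with a listed promoter and both strands, TAATCC was found for 6 of the 88 genes called higher below (6.82%). It was found for 7 of 64 of those called lower (10.9%) and for 6.42% of the 8645 among all genes tested. Otx2 counted as 1 gene, with a match in only 1 of its 4 windows. AAAGGTCA was in 0 of 88, 1 of 64 and 0.983%. These are counts of letters in small sets of promoters, and a match is a description, not a site of binding.

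Slc6a3 chose the cells and cannot check their label, which was set beside the markers Th, Dlk1 and Chrna6. Th was over an RPKM of 10 in 24 of 25 selected cells at E13.5 and 37 of 38 at E15.5, Dlk1 in 25 and 37, and Chrna6 in 18 and 34, so the markers were present in most cells. Dlk1 was also over 10 in 50 of 57 and 44 of 56 comparison cells, and Chrna6 in 20 and 44, so the markers were not particular to the selected cells. The dopamine lineage factor Nr4a2 had a median RPKM of 515 against 629 at E13.5 and of 581 against 688 at E15.5. No selected cell had 3 or more markers of oligodendrocyte lineage, microglia, blood, endothelium or astrocytes over 10, and the summed level of each of these lists had a median of 0 to 2.17. Single cells reached sums of up to 193.9 for the oligodendrocyte lineage list and 237.2 for the astrocyte and radial glia list, both at E15.5, and in the comparison cells these sums reached 291.2 and 355.2, with medians of 0 to 3.47 over the lists. Aqp4, Gja1, Cldn5, Cx3cr1, Tyrobp, Olig1 and Olig2 were listed at 0 in every selected cell. Other members of these lists were not. Of the oligodendrocyte lineage genes, 4 of 11 at E13.5 and 6 of 11 at E15.5 were over 10 in at least 1 selected cell. Of the astrocyte and radial glia genes, 3 of 10 and 6 of 10 were. In the comparison group, 1 E15.5 cell had 3 or more astrocyte and radial glia markers over 10. Of the serotonin, noradrenaline and motor neuron markers, Tph2, Slc6a4, Fev, Slc6a2, Phox2a and Chat were at 0 in all of them. At both stages Xist and Y-linked genes were found in different selected cells, so the cells came from embryos of both sexes.

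Depth was close in the groups compared. At E13.5 the selected cells held a median of 2354720 reads, with a lowest of 888998 and a highest of 3589627, and the comparison cells 2292365. At E15.5 the medians were 2130854, with a range from 265568 up to 4749011, and 2013910. Genes detected had a median of 7034 against 6782 at E13.5 and 6532 against 6388 at E15.5. With every cell thinned to 100000 reads, these medians were 4838 against 4694 and 4460.5 against 4310.5.

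Selected cells made up 17.9% of the heterozygous cells at E13.5 (exact 95% interval 11.9 to 25.2) and 27% at E15.5 (19.8 to 35.1), and the difference of 9.09 percentage points had an interval of -0.684 to 18.7. The share of cells of this kind was 42.6% at E18.5 (80 cells, 35.4 to 49.96), 35.1% at P1 (29.9 to 40.6), 18.6% at P7 (35 cells, 13.3 to 24.9) and 21.8% at P90 (71 cells, 17.5 to 26.7). At P1 the share was 56.4% (45.8 to 66.6) in cells with spike-in RNA and 26.2% (20.6 to 32.5) in those without. These shares are of all heterozygous cells over the read limit. The study excluded embryonic and perinatal cells that it took for oligodendrocytes, and these were kept here. Among adult cells it also found Dat-high neurons underrepresented in its sequencing, most likely through losses in dissociation and sorting. Other dissociation kits were used for P1 and P7 and for P90. The part of all these in the shares was not tested.

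Genes were set side by side by the difference between groups in mean log2(RPKM + 1), which understates the change of weakly expressed genes, and were called higher or lower where the difference was at least 1, a fold of 2, in the same direction at both stages. Of 12355 entries compared, 0.963% were higher in the Slc6a3-high cells and 0.704%, or 87, were lower, and both shares are the background for the counts over gene lists below. At a single stage more entries passed, 806 higher and 564 lower at E13.5 and 477 and 397 at E15.5, and 35 went in opposite directions at the stages. The median difference over all entries was 0.004 at E13.5 and 0.014 at E15.5. On the ratio of arithmetic mean RPKM + 1, which weighs the strongest cells, 1.85% were higher and 3.21% lower, so the balance of the directions turned. Of the entries called on the log scale, 36 higher and 60 lower ones passed the same size on that ratio too, and its log2 values are given below for the named genes that did not.

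**Figure D2:**
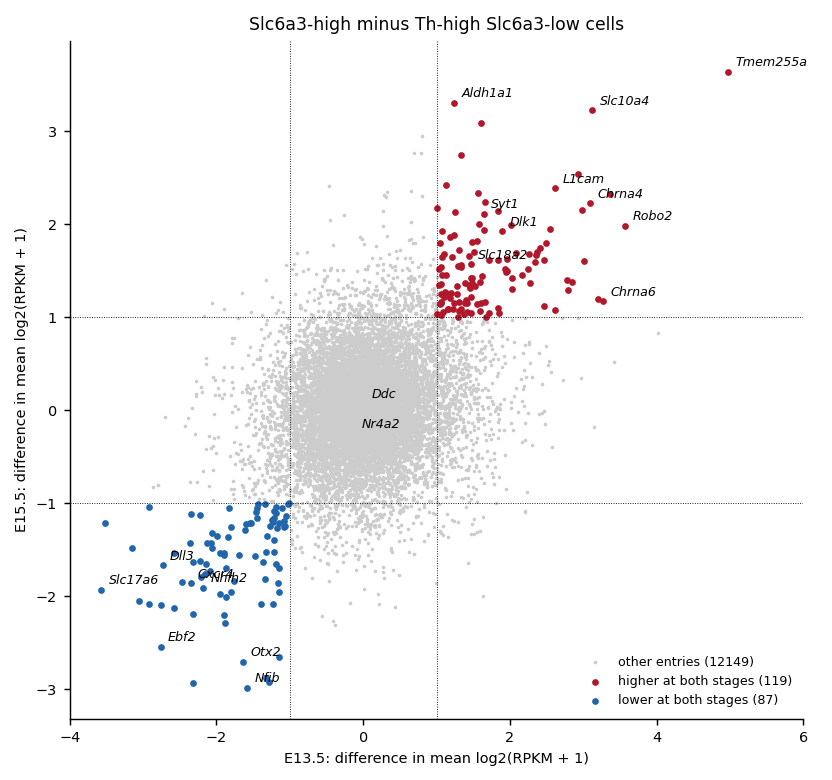
Difference in mean log2(RPKM + 1) between Slc6a3-high and Th-high Slc6a3-low cells at E13.5 (x) and E15.5 (y), with 1 point per entry tested and the size of 1 as lines. The 0.963% of entries higher and the 87 lower at both stages are coloured, and the named genes Tmem255a and Slc10a4 lie far to the upper right and Ebf2, Slc17a6 and Nfib to the lower left.

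Of the genes that make and package dopamine, the pair of vesicle genes on the list was higher in the Slc6a3-high cells, and no enzyme gene was called. Ddc had a median RPKM of 1440 (149.2 to 3472) against 1257 (245.8 to 4069) at E13.5 and of 1375 (3.47 to 3471) against 1154 (156.9 to 3166) at E15.5. Its differences were 0.02 and 0.07 on the log2 scale. Slc18a2 (chr19:59260896-59296012, plus strand) had a median of 363 (0.25 to 1062) against 148.6 (0.131 to 1039) at E13.5. At E15.5 it had 657 (28.5 to 1635) against 294.9 (0 to 1388). The ranges overlapped, with differences of 1.47 and 1.57, and on the log2 ratio of means they were 0.85 and 0.78, under the size used. Gch1, which makes the cofactor of tyrosine hydroxylase, differed in sign between stages, at a median of 60.8 against 118.4 at E13.5 and of 39.5 against 0.496 at E15.5. Qdpr, which regenerates that cofactor, differed by -1.56 and -0.94.

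Slc10a4, which encodes a synaptic vesicle protein of monoamine and cholinergic neurons, gave the clearest separation among these genes (chr5:73006883-73012955, plus strand). Its RPKM in Slc6a3-high cells was 73.5 to 1337 at E13.5 (median 567) against 0.0902 to 1905 (median 90.5). At E15.5 it was 1.6 to 985 (median 326.5) against 0 to 595 (median 39.8). It was over 10 in 25 of 25 and 36 of 38 Slc6a3-high cells and in 42 of 57 and 38 of 56 comparison cells, a gap of 26.3 percentage points (interval 9.86 to 39) and of 26.9 (10.8 to 40.5). The log2 differences were 3.12 and 3.23, and part of the Th-high Slc6a3-low cells had Slc10a4 at an RPKM of 10 or less. In all, 2 of the 8 genes of dopamine synthesis and vesicle loading that were tested were called higher and 0 lower. None of the 4 tested genes of dopamine breakdown and none of the 4 of the autoreceptor and its potassium channels were called.

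Nicotinic acetylcholine receptor subunits, through which acetylcholine excites dopamine neurons, were higher for 3 of the 5 tested, Chrna4, Chrna6 and Chrnb3. The list had a median difference of 1.13 at E13.5 and 1.17 at E15.5, beside 0.004 and 0.014 over all entries. At E15.5 it was 0.60 on the ratio of arithmetic means and 0.61 against comparison cells with Th over 500. Chrna4 (chr2:181018380-181043546, minus strand), which forms the common receptors with Chrnb2, had a median of 121.3 (0.926 to 559) against 25.1 (0 to 337) at E13.5 and of 59.9 (0 to 261.4) against 0.264 (0 to 156.7) at E15.5. It was over 10 in 24 of 25 against 31 of 57 cells and in 24 of 38 against 20 of 56, so the gap was 41.6 points (21.8 to 54.8) and 27.4 (6.87 to 45). Chrna6 (chr8:27403212-27413944, minus strand), a subunit concentrated in dopamine neurons, had a median of 223.4 (0 to 1038) against 0.278 (0 to 1331) at E13.5 and of 508 (0.711 to 2989) against 405 (0 to 1632) at E15.5. Its difference was 3.27 at E13.5 and 1.17 at E15.5. It was over 10 in 18 of 25 against 20 of 57 cells and in 34 of 38 against 44 of 56, so the comparison cells came near the Slc6a3-high cells by E15.5, where its log2 ratio of means was 0.60. Chrnb3 (chr8:27368711-27399730, plus strand), its neighbour and frequent partner, had its larger gap at E15.5, with 5 of 25 against 3 of 57 cells at E13.5 and 18 of 38 against 7 of 56 at E15.5. The common partner Chrnb2 was at a median of 80.6 against 82.3 and of 55.8 against 47.6, and differed little.

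**Figure D3:**
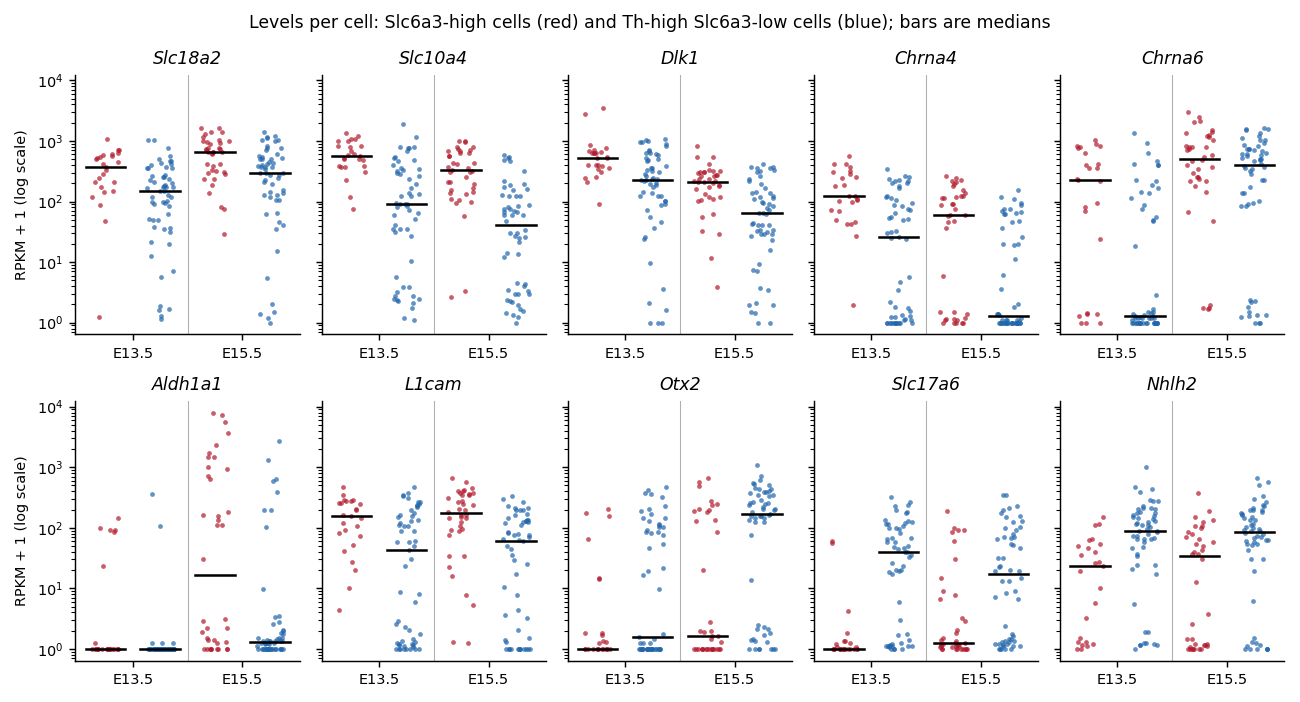
RPKM + 1 on a log axis of single genes in Slc6a3-high and Th-high Slc6a3-low cells at E13.5 and E15.5, with 1 point per cell and the median as a bar. Slc10a4 (567 against 90.5 at E13.5) and Chrna4 have higher medians in the Slc6a3-high cells at both stages and Slc17a6 and Nhlh2 lower ones, with overlapping ranges in every panel.

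Of the 17 tested transcription factors of the midbrain dopamine lineage, 1 was higher in the Slc6a3-high cells, Dmrtb1, and 1 lower, Otx2. Lmx1a and Foxa1, early factors of this lineage, differed by -0.96 and -1.12 and by -0.90 and -1.01, just short of the size used at E13.5. Pitx3 had a median of 352.2 against 413 at E13.5 and of 260 against 291.6 at E15.5, and En1 of 56.8 against 63.7 and of 53.5 against 50.9. The differences of Pitx3 were -0.59 and 0.25 and those of En1 -0.07 and 0.07, so neither had a common direction. The reporter eGFP, on which the cells were sorted, differed by -0.28 and 0.16. Dmrtb1 (chr4:107676290-107684230, minus strand), a gene of the DM-domain family, had a median of 81.9 against 22.8 and of 75.5 against 0.949, with differences of 1.64 and 1.93 that fell to 0.31 and 0.94 on the ratio of means.

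Otx2, a factor of the ventral tegmental lineage, was lower (chr14:48657677-48673819, minus strand). Its RPKM had a median of 0 (0 to 206.9) in Slc6a3-high cells against 0.574 (0 to 472) at E13.5 and of 0.656 (0 to 661) against 165.8 (0 to 1106) at E15.5. It was over 10 in 6 of 25 against 26 of 57 cells, a gap of -21.6 points (-39.5 to 1.35), and in 14 of 38 against 39 of 56, a gap of -32.8 points (-49.8 to -12.3). The E13.5 gap alone was thus within counting error of 0.

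Aldh1a1, the retinaldehyde dehydrogenase that marks ventral tier nigral neurons in the adult, was the 1 of 8 tested nigral subtype genes called, and it was higher (chr19:20492715-20643465, plus strand). At E13.5 it was over 10 in 6 of 25 Slc6a3-high cells and 2 of 57 comparison cells, with highest RPKM of 144.6 and 355.1. At E15.5 it was over 10 in 19 of 38 and 8 of 56 cells, with highest RPKM of 7962 and 2697 and a gap of 35.7 points (16.7 to 52.4). The E15.5 Slc6a3-high cells thus held as many cells with Aldh1a1 over 10 as without, 19 each. Its near copy Aldh1a7 was over 10 in 0 of 25 and 1 of 38 of them. Of the retinoid genes, 2 of 6 tested were higher, Aldh1a1 and the retinaldehyde reductase Dhrs3, at 15 of 25 against 17 of 57 and 15 of 38 against 11 of 56 cells. Sox6, the nigral factor, was over 10 in only 3 cells at each stage in the Slc6a3-high group against 1 and 0. The study likewise found no high Sox6 levels in its data, and names possible underrepresentation of some mRNAs in such libraries.

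Genes of the tegmental subtypes were lower for 2 of the 9 tested, Otx2 and Slc17a6, and higher for 0. The list as a whole had no common direction, with a median difference of -0.53 at E13.5 and 0.10 at E15.5. Single values ranged from -3.57 to 1.76. Slc17a6 (chr7:51622006-51671119, plus strand), the vesicular glutamate transporter VGLUT2, had a median of 0 (0 to 58.7) against 38.3 (0 to 322.02) at E13.5. At E15.5 it had 0.246 (0 to 191.1) against 16 (0 to 343). Only 2 of 25 and 8 of 38 Slc6a3-high cells had it over 10, against 38 of 57 and 31 of 56, so the gap was -58.7 points (-71 to -37.3) and -34.3 (-50.1 to -14.3). The GABA gene Gad2 was over 10 in 0 of 25 and 0 of 38 Slc6a3-high cells, against 5 of 57 and 8 of 56. With a limit of 3 divided by the number of cells, not an exact interval, 0 cells allow shares up to 12% and 7.89%.

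Otx2 and Aldh1a1 did not exclude each other in single cells. Of the 38 E15.5 Slc6a3-high cells, 8 had both over 10, 11 only Aldh1a1, 6 only Otx2 and 13 neither, and of the 56 comparison cells 5, 3, 34 and 14. Otx2 with Slc17a6 was found in 4 Slc6a3-high and 21 comparison cells at E15.5 and in 0 and 20 at E13.5. All Aldh1a1 cells of the Slc6a3-high group also had Dlk1 over 10, 6 of 6 at E13.5 and 19 of 19 at E15.5, but Dlk1 was in nearly every cell of that group.

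A short list was made for each of the branches that lead to Dat-low and Dat-high neurons, from transcription factors that the study names as enriched in those cells and from further genes added with results of these data known. Among the genes called, Ebf2, Nfia, Nfib, Zfp536 and Zfhx3 come from the study's factors, and the others were added. Because all were chosen on these samples, their direction is not independent evidence. Of the 12 tested genes of the Dat-low side, 0 were higher and 5 lower, Ebf2, Nfia, Nfib, Nxph4 and Zfp536, at a median difference of -0.99 at each stage. Of the 8 tested genes of the Dat-high side, 4 were higher, Dlk1, Grik3, Slc10a4 and Zfhx3, and 0 lower, at medians of 0.88 and 1.29. Dlk1 (chr12:109452823-109463336, plus strand), an imprinted gene for a membrane protein with EGF repeats, had a median of 531 (89 to 3526) against 229.4 (0 to 1073) at E13.5 and of 210 (2.9 to 812) against 62.6 (0 to 410) at E15.5. Its level was thus lower at E15.5 in both groups, with the difference kept at 1.89 and 1.93. It was the 1 of 23 tested imprinted genes called. Grik3, a kainate receptor subunit, differed by 2.38 and 1.71, and the homeobox gene Zfhx3 by 1.38 and 1.03, or 0.83 and 0.61 on the log2 ratio of means.

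Of the Dat-low side, Ebf2 (chr14:67233292-67430918, plus strand), a helix-loop-helix factor of early neurons, was over 10 in 4 of 25 against 30 of 57 cells at E13.5 and in 1 of 38 against 25 of 56 at E15.5. The gaps were -36.6 points (-52.3 to -14.1) and -42 (-55.1 to -25.6). Nfib (chr4:82290173-82705750, minus strand), of the nuclear factor I family, was over 10 in 1 of 25 against 17 of 57 and in 10 of 38 against 45 of 56 cells. The gap was -25.8 points at E13.5 and -54 at E15.5, so it was wider at the later stage. Nfia, of the same family, was over 10 in 0 of 25 against 10 of 57 and in 5 of 38 against 17 of 56. Nxph4, which encodes a secreted neurexophilin, was in 7 of 25 against 25 of 57 and in 3 of 38 against 17 of 56.

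Genes of the newborn neuron were lower for 5 of the 22 tested and higher for 0, at median differences of -0.73 and -0.58. Besides Ebf2 these were Nhlh2, Dll3, Igfbpl1 and St18. Nhlh2 (chr3:102010076-102015492, plus strand), a helix-loop-helix factor, had a median of 22.1 (0 to 151.96) against 89 (0 to 1011) and of 32.6 (0 to 379) against 84.9 (0 to 672). The Notch pathway ligand Dll3 was over 10 in 5 of 25 against 32 of 57 cells and in 6 of 38 against 23 of 56. Igfbpl1 was over 10 in 0 of 25 Slc6a3-high cells at E13.5, which allows up to 12%, against 20 of 57, and in 1 of 38 against 14 of 56 at E15.5. St18, a zinc finger factor, was in 1 of 25 against 20 of 57 and 1 of 38 against 10 of 56. Neurod1, a proneural factor that was not called, was over 10 in 0 of 25 against 16 of 57 and 0 of 38 against 5 of 56. The microtubule gene Dcx, found in all migrating neurons, was in 22 of 25 and 52 of 57 and in 31 of 38 and 53 of 56 cells, a gap of -3.23 points (-21.9 to 9.61) at E13.5 and of -13.1 (-28.5 to -0.0181) at E15.5. Of the 10 tested progenitor and cell cycle genes, Vim, the intermediate filament of progenitors and young neurons, was lower, at -1.90 and -1.56. On the log2 ratio of means Vim had -1.29 and -0.70. Mki67 and Sox2, picked as examples, were over 10 in no cell of either group. The cell cycle gene Pcna, however, was over 10 in 10 of 25 and 16 of 38 Slc6a3-high cells.

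Genes of the mature neuron gave smaller counts. Of 37 tested genes of neuronal maturation and synaptic vesicles, 3 were higher and 0 lower, with median differences of 0.32 and 0.19. The calcium sensor of release Syt1 differed by 1.65 and 2.12, the complexin Cplx1 by 1.07 and 1.46, and the sodium pump subunit Atp1b1 by 1.06 and 1.54. The log2 ratio of means was 0.41 at E13.5 for Syt1, and 0.40 and 0.70 for Atp1b1. Of 30 tested channel genes, the SK3 channel Kcnn3, which paces dopamine neurons, was higher by 1.83 and 2.14, and the calcium channel subunit Cacna2d3 by 1.96 and 1.63, or 0.93 and 0.71 on the log2 ratio of means. Kcnn3 was over 10 in 11 of 25 against 9 of 57 cells and in 26 of 38 against 19 of 56. Of 23 tested glutamate and GABA receptor genes, 2 were higher, Grik3 among them, and 0 were lower.

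The granin pair of the dense-core vesicle went in opposite directions. Chga had a median of 105.7 (0 to 352.2) against 48.1 (0 to 559) at E13.5 and of 103.5 (0 to 464) against 85.1 (0 to 533) at E15.5, with differences of 1.60 and 1.38. On the log2 ratio of means those were 0.76 and 0.33. Chgb had 90.3 (0.586 to 565) against 373.2 (0.688 to 1402) and 115.3 (0.63 to 403) against 208.6 (0.186 to 1405), with differences of -1.99 and -1.36. They were the only called genes among the 17 tested of granins, peptide processing and neuropeptides, and the lower one, Chgb, kept its size on both scales.

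Among 32 tested axon guidance genes, 3 were higher and 2 lower, with median differences of -0.09 and -0.05. The Slit receptor Robo2 (chr16:73891839-74411825, minus strand) was over 10 in 19 of 25 against 9 of 57 cells at E13.5, a gap of 60.2 points (37.6 to 74.7), and in 18 of 38 against 8 of 56 at E15.5, a gap of 33.1 points (14.3 to 49.9). The semaphorin Sema6d was in 20 of 25 against 21 of 57 and 18 of 38 against 13 of 56, with a log2 ratio of means of 0.91 at E15.5. The adhesion molecule L1cam had a median of 153.6 (3.44 to 463) against 41.3 (0 to 475) and of 171.7 (0.27 to 659) against 60.7 (0 to 330), with a log2 ratio of means of 0.82 at E13.5. The semaphorin and VEGF receptor Nrp2 was lower, in 7 of 25 against 35 of 57 and 8 of 38 against 32 of 56 cells. The chemokine receptor Cxcr4, which guides migrating neurons, was in 2 of 25 against 27 of 57 and 7 of 38 against 28 of 56.

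**Figure D4:**
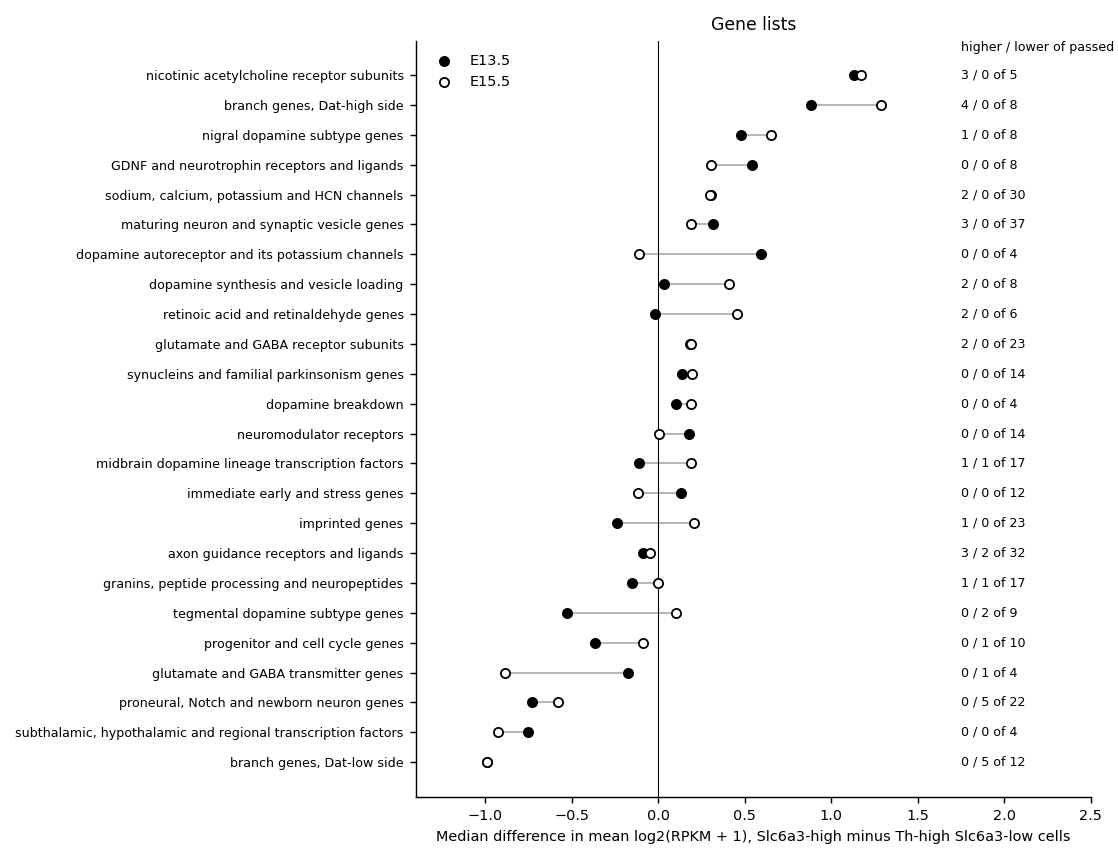
Median difference in mean log2(RPKM + 1) between Slc6a3-high and Th-high Slc6a3-low cells over the tested genes of each list, filled for E13.5 and open for E15.5, with the numbers called higher and lower of those tested at the right. The nicotinic receptor and Dat-high lists have their medians highest, at 1.13 and 1.17 and at 0.88 and 1.29, and the Dat-low and newborn neuron lists theirs at -0.99 and -0.99 and at -0.73 and -0.58.

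No gene was called in 5 further lists, which were 8 tested GDNF and neurotrophin genes, 14 of synucleins and familial parkinsonism, 14 neuromodulator receptors, 4 regional transcription factors and 12 immediate early and stress genes. The lists of other cell types held 7 tested genes in all, of which 0 were called.

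Outside the lists, the genes with the largest differences at both stages were led by Tmem255a (chrX:38196573-38252439, minus strand), which encodes a transmembrane protein. Its RPKM had a median of 196.1 (0 to 1125) against 0 (0 to 312.7) at E13.5 and of 99.2 (0 to 675) against 0.193 (0 to 498) at E15.5. It was over 10 in 20 of 25 against 11 of 57 cells and in 23 of 38 against 8 of 56, gaps of 60.7 points (38.1 to 74.5) and 46.2 (26.7 to 61.7), with differences of 4.97 and 3.64. Its differences were thus larger at both stages than those of any called gene of the lists, although 5 of 25 and 15 of 38 Slc6a3-high cells had it at 10 or less. The RNA-binding gene Rbms3 (chr9:116572746-117629913, minus strand) differed by 2.92 and 2.54, at 15 of 25 against 11 of 57 and 32 of 38 against 31 of 56 cells. AW551984 differed by 3.37 and 2.32 and the tetraspanin Tspan7 by 2.98 and 2.15, with log2 ratios of means of 0.77 and 0.78 for the first and 1.33 and 0.92 for the second. Other genes of this rank were C1qtnf4, Tmem130, Cntnap4, of a family of neuronal adhesion proteins, and the calmodulin regulator Pcp4, each higher by at least 1.74 at each stage. On the log2 ratio of means C1qtnf4 had 0.69 at E13.5, Tmem130 had 0.77 and 0.83, and Pcp4 had 0.62 at E15.5.

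Among those lower, Epb41l3 (chr17:69075683-69289989, plus strand), which links membrane proteins to the cytoskeleton, was over 10 in 5 of 25 against 33 of 57 cells and in 5 of 38 against 34 of 56, gaps of -37.9 points (-54.2 to -14.8) and -47.6 (-61.4 to -28.3). The zinc finger factor Zeb2 (chr2:44983632-45117395, minus strand) was over 10 in 0 of 25 against 18 of 57 and in 1 of 38 against 22 of 56. Zeb2 was thus rare and Epb41l3 less common in Slc6a3-high cells at both stages, and both were found in over 3 in 10 of the comparison cells. The heparan sulfate sulfatase gene Sulf1, the 5-oxoprolinase gene Oplah, the ubiquitin ligase adaptor gene Asb4 and the calcium sensor gene Hpcal1 were also among the lower genes of this rank, with log2 ratios of means of -0.98 and -0.89 for Hpcal1.

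The cells with Th over 150 and a Slc6a3 level between the limits, 9 at E13.5 and 10 at E15.5, differed in their place from gene to gene. For the higher entries the median of the mean log2 levels was 4.08 in Slc6a3-high, 2.87 in these cells and 2.21 in the comparison cells at E13.5, and 4.06, 3.16 and 2.32 at E15.5, and 58% and 51.3% of entries lay inside the interval. For the 87 lower entries it was 1.59, 2.35 and 3.55 at E13.5 and 1.69, 2.33 and 3.24 at E15.5, with 59.8% and 60.9% inside. Over all entries compared 21.1% and 19.4% lay inside, but the called ones were chosen for a wide gap between the same groups, which by itself leaves more room inside. Single genes differed. Slc18a2 was at a median of 416 and 626 in the cells between, as high as in the Slc6a3-high cells, and Dlk1 at 500 and 145.1, while Tmem255a was at 0 and 21.5.

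Within the Slc6a3-high cells the level of Slc6a3 itself went little with other genes. Its rank correlation with Slc10a4 was 0.40 over 25 cells and 0.22 over 38, and with Th 0.12 and 0.15. These are descriptions over cells that share their libraries' preparation and differ in depth.

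The Slc6a3-high cells of E13.5 and E15.5 differed from each other by the same size in 4.69% of entries that were higher at E15.5 and 9.28% that were lower. The E15.5 cells also had fewer genes detected, at a median of 6532 against 7034, or 4460.5 against 4838 after thinning. The part of this in the stage differences was not tested. Kcnip4, a potassium channel subunit, was over 10 in 8 of 25 cells and then in 33 of 38 (difference 54.8 points, 30.7 to 71.4), and the sodium channel gene Scn9a in 6 and 29 (52.3 points, 27.4 to 68.8). Aldh1a1 went from 24% to 50% of cells (26 points, 1.36 to 45.6), Chrnb3 from 20% to 47.4% (27.4 points, 3.13 to 46.4) and the dopamine autoreceptor Drd2 from 12% to 42.1% (30.1 points, 7.18 to 47.7). Chrna4 went from 96% to 63.2% (-32.8 points, -49.1 to -12.3) and the semaphorin Sema5b from 52% to 21.1% (-30.9 points, -51.5 to -6.94). These genes were picked for their size among the listed ones, and other channel genes went the other way, such as the calcium channel gene Cacna1h in 14 of 25 and then 11 of 38 cells. The comparison cells also differed with stage, by 2.34 for Kcnip4 beside 4.42 in the Slc6a3-high cells, and by -1.57 for Chrna4 beside -2.43, in mean log2(RPKM + 1).

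Several genes of the adult dopamine neuron, picked as examples and not as a full count, were scarce in these first Slc6a3-high cells. They were common in those of E18.5, and the share of all entries that changed as much is not given. Calb1, the calcium buffer calbindin, was over 10 in 12% at E13.5, 18.4% at E15.5 and 77.5% at E18.5, Calb2 in 8%, 23.7% and 83.8%, and acetylcholinesterase (Ache) in 4%, 26.3% and 86.2%. Beta-synuclein (Sncb) was in 20%, 15.8% and 77.5%. The cell cycle inhibitor Cdkn1c went the other way, at 80%, 76.3% and 32.5%. Th, Slc18a2 and Slc10a4 were in at least 9 of 10 cells at all 3 stages. The E18.5 cells had spike-in RNA and separate libraries, and these cannot be told apart from age.

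**Figure D5:**
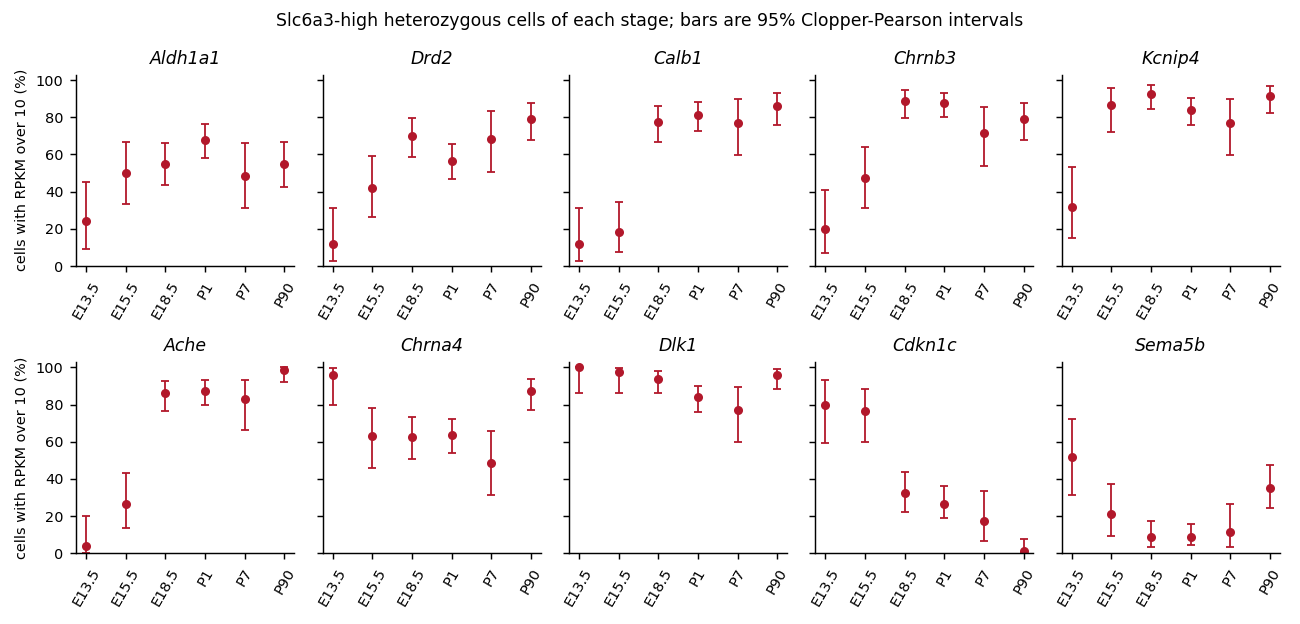
Percentage of heterozygous Slc6a3-high cells with an RPKM over 10 (y) by stage (x) for single genes, with exact 95% intervals as bars. Calb1 and Ache lie under 30% at E13.5 and E15.5 and over 70% from E18.5, whereas Dlk1 stays over 70% throughout.

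The same limits on Slc6a3 and Th were applied to heterozygous cells of E18.5, P1 and P7, which the rule had not used. Cells of P90 were not part of this comparison. The Th-high Slc6a3-low cells numbered 14 and 19 in the E18.5 sets and 13 at P7. At P1 they numbered 14 with spike-in RNA and 34 without. Of the higher entries, 32.8% and 36.1% differed in the same direction by at least 1 in the 2 sets of E18.5 cells named in the titles, where 7.12% and 6.86% of all entries did. At P1 the percentages were 38.7 against 11.2 for cells with spike-in RNA and 31.1 against 4.08 for those without, and at P7 21 against 6.56. Of the 87 lower entries, 39.1% and 35.6% did so at E18.5 (all entries 5.82% and 4.56%), 26.4% in each P1 set (3.72% and 2.74%) and 36.8% at P7 (10.5%). Past that size in all 5 sets were 13 higher entries, 10.9% of them against 0.227% of all entries, among them Aldh1a1, Chrna6, Chrnb3, Dmrtb1, Grik3, Pcp4, Slc10a4 and Tmem255a. The same held for 9 lower ones, 10.3% against 0.105% of all entries, among them Epb41l3, Nfia, Nhlh2, Sez6 and Slc17a6. Without P7 these were 17 higher ones, 14.3% against 0.34% of all entries, with Chrna4 and Slc18a2 among those added. The lower ones were then 10, or 11.5% against 0.146% of all entries. Differences within 0.5 of 0 in all 5 sets were found for 5 higher entries, AW551984 among them, and for 6 lower ones, with Cxcr4 and Igfbpl1, or 4.2% and 6.9% against 15.2% of all entries. The sign was opposite in all 5 sets for the higher entry Snhg11, where 4.29% of all entries were lower in every set, and for the lower entry Mapk7, where 7.05% were higher, and both are named here after their values were seen. At E13.5 and E15.5 their log2 ratios of means were 0.28 and 0.64 for Snhg11 and -0.86 and -0.94 for Mapk7, under the size used.

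Pitx3eGFP/eGFP embryos, which have eGFP in both Pitx3 alleles, were sorted at E13.5 as well. Only 1 of their cells passed the Slc6a3 limit (0.538%, exact interval 0.0136 to 2.96), 17.3 points fewer than the 17.9% of heterozygous cells (interval 11.3 to 24.5). Th-high Slc6a3-low cells were present, 76 of them. Among the cells that passed either limit the share with high Slc6a3 was 26.2 points greater in heterozygous embryos (16.5 to 36.2). The single homozygous cell had Slc6a3 at an RPKM of 998 and Th at 429, and 4 reads of Pitx3. Pitx3 was over 10 in 60.8% of the homozygous cells and 87.1% of the heterozygous ones, and the counts do not say from which part of the gene the reads came, so the level of Pitx3 does not check the genotype. Homozygous E13.5 cells were prepared with spike-in RNA and heterozygous ones without, so genotype and preparation cannot be told apart. At P1, where homozygous cells had spike-in RNA, 16 of them (8.56%, 4.97 to 13.5) passed the limit against 56.4% of the heterozygous cells with spike-in RNA and 26.2% of those without.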

How the data were processed

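Ventral midbrain cells sorted for GFP were profiled as single cells, 1699 in all. For each of 39468 gene entries the authors deposited a raw read count, not normalized, and an RPKM, made relative to gene length and the reads of the cell with rpkmforgenes after alignment with STAR to mm10. Cells with over 100000 reads were used, no doublet caller was run, and 0 columns lacked a sample. Entries with a mean RPKM of at least 1 over both groups together at each stage were compared as mean log2(RPKM + 1) with python 3.11.15, numpy 2.4.6, scipy 1.17.1 and pandas 2.3.3 (figures with matplotlib 3.10.9), and no test was run, since each stage is 1 sample. Shares are of cells with an RPKM over 10, with exact (Clopper-Pearson) 95% intervals, and Newcombe intervals for differences. PCR reads without molecular identifiers are not independent molecules, so intervals and the 3-count floor for a share of 0 cover counting error only. That floor is 3 divided by the number of cells and is not an exact interval. For a gene of the lists with more than 1 entry, the entry with most reads was taken. Counts over all entries kept repeated identifiers apart. Code was tested on simulated data. The genes named are the members of fixed lists and, beyond them, the 15 called in each direction with the largest smaller difference. The members and lists were chosen with earlier results of these data known. Some results are not reported here. Coordinates are from GENCODE vM21. Alternatives covered the pseudocount, filters, limits, scale and depth.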

Additional observations from a re-analysis of the deposited data

How the results depend on the processing

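No paired analysis was possible because each stage and genotype is 1 sample and no test was made. Called entries, as a percentage of the 12355 compared, were 0.963% higher and 0.704% lower, and stayed within 1.5 times of these without a filter on low values or with a stricter one, with each cell thinned to 100000 reads, and with most other limits on Slc6a3 and Th. They were 3.22% and 2.09% with a pseudocount of 0.1, 0.121% and 0.121% with 10, 1.85% and 3.21% on the ratio of arithmetic means, 6.52% and 4.56% at E13.5 alone, 3.86% and 3.21% at E15.5 alone, 0.057% and 0.057% with a difference of at least 2, and 4.20% and 2.87% with a fold of at least 1.5. With Slc6a3 over 300 against 1 or less, limits chosen after seeing the data, 1.13% were lower. The nicotinic list had an E13.5 median of 1.74 with a pseudocount of 0.1, the Dat-low list medians of -2.23 (E13.5) and -1.68 (E15.5) on arithmetic means, and the Dat-high list an E15.5 median of 1.87 with a pseudocount of 0.1 and 0.57 with 10. The nicotinic E15.5 median was 0.60 on arithmetic means and 0.61 against comparison cells with Th over 500. With a pseudocount of 10 the E13.5 and E15.5 medians were 0.64 and 0.83 for the nicotinic list, -0.45 and -0.43 for the Dat-low list, 0.47 and 0.57 for the Dat-high list and -0.60 and -0.36 for the newborn neuron list, which had -1.16 at E13.5 with a pseudocount of 0.1. The causes were not tested. Of the shares of cells, 1 changed sign, that of Zfhx3 at E15.5, at -1.79 points with a limit of 50. Across all 15 settings with both stages and the same size of difference, 6 higher entries (Chrna4, Dlk1, Rbms3, Robo2, Slc10a4 and Tmem255a) and 12 lower ones, Ebf2, Epb41l3, Nhlh2 and Nrp2 among them, remained called. The number of cells limits the rest, since 0 of 25 cells allows a share of up to 12%.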
